A study of Mus musculus with 4 samples.

Results

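The nuclear receptors Nr4a1, Nr4a2 and Nr4a3, the zinc finger factors Egr1, Egr2 and Egr3, and the immediate early response genes Ier2, Ier3 and Ier5 were followed in mucosal-type mast cells of the mouse after interleukin 18 (IL-18). Every gene spot that carried the name of a member was taken. This gave 9 genes of 27962 gene names on the array, with 11 probes of 41174 and 20 spots of 43379 on each array. Mast cells had been differentiated in vitro, and RNA of IL-18 stimulated cells (Cy5) was hybridised on 4 arrays, each against RNA of its own unstimulated control (Cy3). The labels call the 4 arrays biological replicates and give no strain, age, dose or time. The dyes were the same way round on every array, so a dye difference cannot be told apart from the response to IL-18. This holds for a single probe and for many probes together.

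Immediate-early genes are switched on by factors already present in the resting cell, without new protein synthesis, and many of their mRNAs are short-lived. The NR4A proteins are orphan nuclear receptors that bind DNA as monomers, and the EGR proteins bind GC-rich sites and carry signals from MAP kinases to later genes. IER2 and IER5 are nuclear proteins linked to transcription, while IER3 is known for limiting cell death and for its control by NF-kB. IL-18, a cytokine of the IL-1 family, signals through MyD88 to NF-kB and the MAP kinases.

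Windows of 250 bases before the annotated start were held for 6 member genes in the RefSeq promoter table (build GRCm38.p6). They were searched on both strands for elements that signal-dependent factors are known to bind. Among 32851 windows of this length, the TGCGTCA element was in 1.75%, the CREB/ATF half-site TGACG in 17.8%, the EGR site GCGNGGGCG in 4.7%, the CArG box of serum response factor in 1.47% and the NF-kB site in 3.9%. The full cAMP response element TGACGTCA (1.55% of windows), which contains the half-site, and the NR4A element AAAGGTCA (1.34%) had no match in the member windows. The sequences below are from called members that hold a match, with each match inside them in capitals, 5′ to 3′ on the gene's strand. Nr4a1, Nr4a2 and Ier3 are shown whole and Egr2 in part. After loess the mean ratios of Nr4a1 and Nr4a2 had opposite signs.
Nr4a1 (chr15:101266596-101266845, plus strand): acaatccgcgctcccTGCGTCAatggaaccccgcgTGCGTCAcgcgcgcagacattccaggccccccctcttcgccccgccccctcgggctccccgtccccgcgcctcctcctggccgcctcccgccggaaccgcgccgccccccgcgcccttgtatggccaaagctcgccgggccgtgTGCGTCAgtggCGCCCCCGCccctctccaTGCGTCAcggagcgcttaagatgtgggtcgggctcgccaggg
Nr4a2 (chr2:57124004-57124253, minus strand): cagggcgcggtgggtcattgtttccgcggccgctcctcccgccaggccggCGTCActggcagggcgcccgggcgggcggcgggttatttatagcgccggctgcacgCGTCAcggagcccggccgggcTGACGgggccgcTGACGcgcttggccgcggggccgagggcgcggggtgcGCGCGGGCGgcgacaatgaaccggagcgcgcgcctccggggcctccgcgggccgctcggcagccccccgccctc
Egr2 (chr10:67537791-67537820, plus strand, 30 bases): ctcagtCCATATATGGgcagcgaCGTCAcg
Ier3 (chr17:35821463-35821712, plus strand): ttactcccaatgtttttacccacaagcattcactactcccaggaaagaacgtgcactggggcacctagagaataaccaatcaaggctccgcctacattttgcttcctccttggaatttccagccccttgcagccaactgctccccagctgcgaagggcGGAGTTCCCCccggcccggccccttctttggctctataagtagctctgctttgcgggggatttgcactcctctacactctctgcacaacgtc
The Nr4a1 window held 4 copies of TGCGTCA, with first bases at -235, -215, -71 and -42 from the start, and 1 EGR site at -60 to -52. Each of the 4 copies also contains the half-site, read on the other strand, so the motifs are not separate matches. The Nr4a2 window held 4 half-sites and 1 EGR site, and no TGCGTCA. A CArG box followed by a half-site stood in the Egr2 stretch, which 3 overlapping windows of the 5 for that gene share. Those windows also held 1 half-site further upstream, and another Egr2 window held a CArG box of its own at -72 to -63, neither of which is printed. The Ier3 window held 1 NF-kB site at -92 to -83. Among the windows not printed, that of the untested Nr4a3 held 4 half-sites, as many as that of Nr4a2. The window of Ier5, which was not called, and another window of Egr2 held no match. These are matches of letters only, and nothing on these arrays measured binding.

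After IL-18, Nr4a1, Egr1, Egr2, Egr3 and Ier3 rose, Nr4a2 fell slightly, and neither Ier2 nor Ier5 passed the test. The rises ran between 1.47-fold and 2.38-fold, and the fall was 1.15-fold. In counts, 9 of the 11 member probes were bright enough to test, for 8 of the 9 genes. Of these 9 probes, 5 were higher in stimulated cells, 1 was lower and 3 were not called (limma, Benjamini-Hochberg adjusted p under 0.05). Over the whole array 34.2% of 24101 tested probes were called, 18.1% higher and 16.1% lower, against 66.7% of the member probes called and 55.6% higher. The median log2 ratio, stimulated over unstimulated, was 0.55 over the 9 member probes and 0.02 over all tested probes. Stimulated and unstimulated intensities did not overlap for 6 member probes, and for 5 of them stimulated cells were higher. Over all tested probes 31.3% had no overlap, and for 16% stimulated cells were the higher ones. RNA came from bulk cultures, so fewer cells of a type and less RNA per cell cannot be told apart. Every member call was lost when the arrays were first scaled to a common spread of all gene spots. Centring the arrays on their median, with the trend of the ratio with brightness left in, moved the median of all probes to 0.43. It turned only Nr4a2 among the called members. In that setting the brighter Ier2 probe (1.44, limma adjusted p = 0.0103) and Ier5 (1.32, adjusted p = 0.012) passed the test too, so that 7 member probes were higher.

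**Figure D1:**
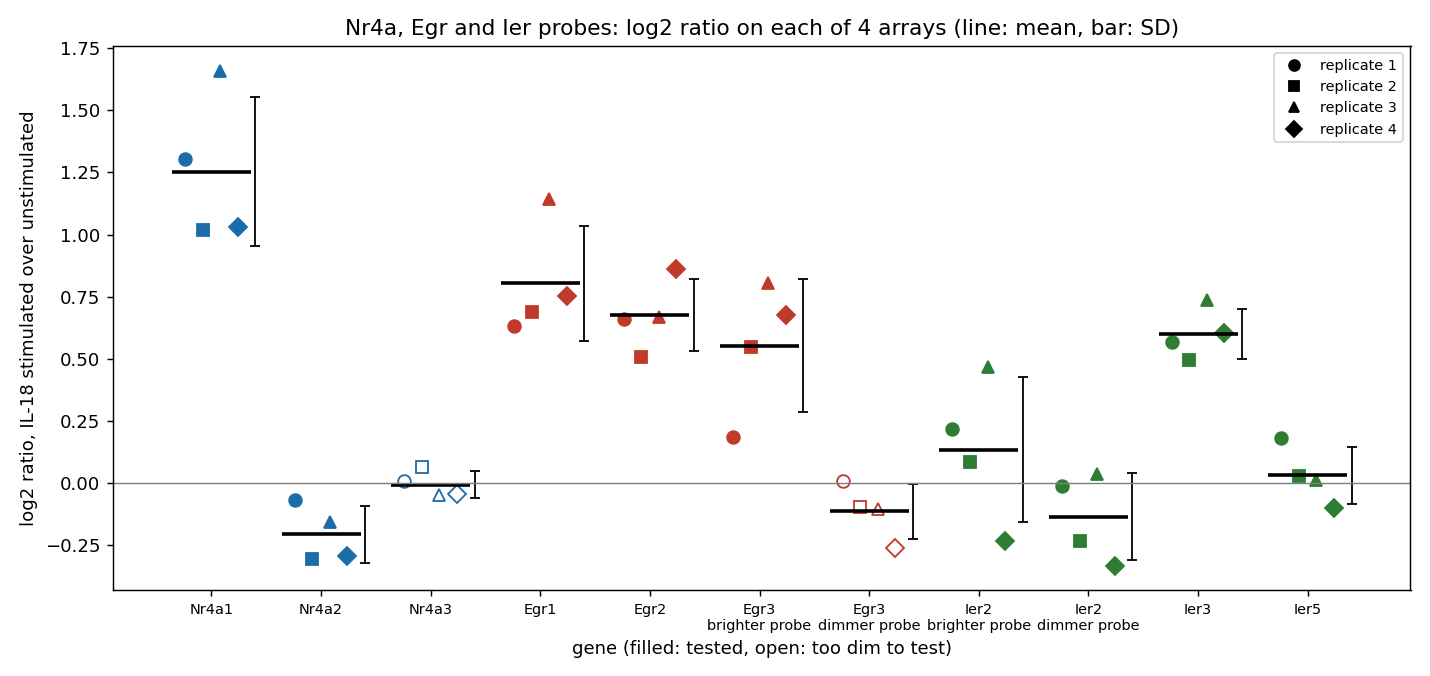
Log2 ratio of IL-18 stimulated over unstimulated cells (y axis) for each of the 11 member probes (x axis) on the 4 arrays, 1 symbol per replicate; the line is the mean and the bar the SD, and open symbols mark the 2 probes too dim to test. Nr4a1 lies between 1.02 and 1.66, the called Egr probes and Ier3 lie above 0 on all 4 arrays, Nr4a2 lies below 0 on all 4, and Ier2 and Ier5 straddle 0.

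Nr4a1, the receptor also called Nur77, had the highest mean ratio of the members after loess. With median centring alone Egr1 stood above it, at 2.08 for Egr1 and 2.02 for Nr4a1, as it did in the raw signals. Its normalized intensity was 2670, 2394, 3177 and 2183 in stimulated cells of replicates 1 to 4, against 1081, 1181, 1006 and 1069 in their unstimulated controls. The lowest stimulated sample was thus well above the highest control, and replicate 3 held both the highest stimulated and the lowest unstimulated value. The log2 ratios were 1.30, 1.02, 1.66 and 1.03, a mean of 1.25 ± 0.30 (SD, n = 4 arrays), or 2.38-fold with a 95% interval of 1.00 to 1.51 on the log2 scale (limma adjusted p = 0.00125). Only 14 of the tested probes had a higher mean ratio. Leaving out any 1 array kept the Nr4a1 mean between 1.12 and 1.33 and the largest adjusted p at 0.016 (limma).

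Nr4a2, the close relative known as Nurr1, went the other way by a small amount. Intensities were 582.5, 495.7, 577.7 and 487.1 in stimulated cells and 610.2, 611.7, 644.2 and 597.5 in unstimulated cells. All 4 stimulated values were under the lowest control, with replicate 1 the closest pair. The log2 ratios of -0.07, -0.30, -0.16 and -0.29 gave a mean of -0.21 ± 0.11 (SD, n = 4 arrays), 0.867-fold (limma adjusted p = 0.0301). A further 3845 tested probes had a lower mean than Nr4a2, so a fall of this size was common on these arrays. The call did not hold with limma when replicate 2 (adjusted p = 0.148), replicate 3 (0.095) or replicate 4 (0.0641) was left out. Before loess the mean raw log2 ratio of Nr4a2 was 0.465. With median centring alone the mean of Nr4a2 turned to 0.34, which is still under the 0.43 of the median probe in that setting.

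Nr4a3, or Nor1, could not be measured. Its probe was not well above background in either channel of any array. The raw signal above local background was 16.33 to 26.65 in the stimulated channel and 43.14 to 53.82 in the unstimulated channel, so it gives a bound and no level. Between the 2 measured receptors the difference, Nr4a1 minus Nr4a2 on the same array, was 1.46 ± 0.24 on the log2 scale (SD, n = 4 arrays) and had the same sign on all 4. An exact sign-flip test over 4 arrays cannot go below p = 0.13, which this pair reached (two-sided), or 0.219 after Benjamini-Hochberg adjustment over the 7 pairs compared within the families.

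**Figure D2:**
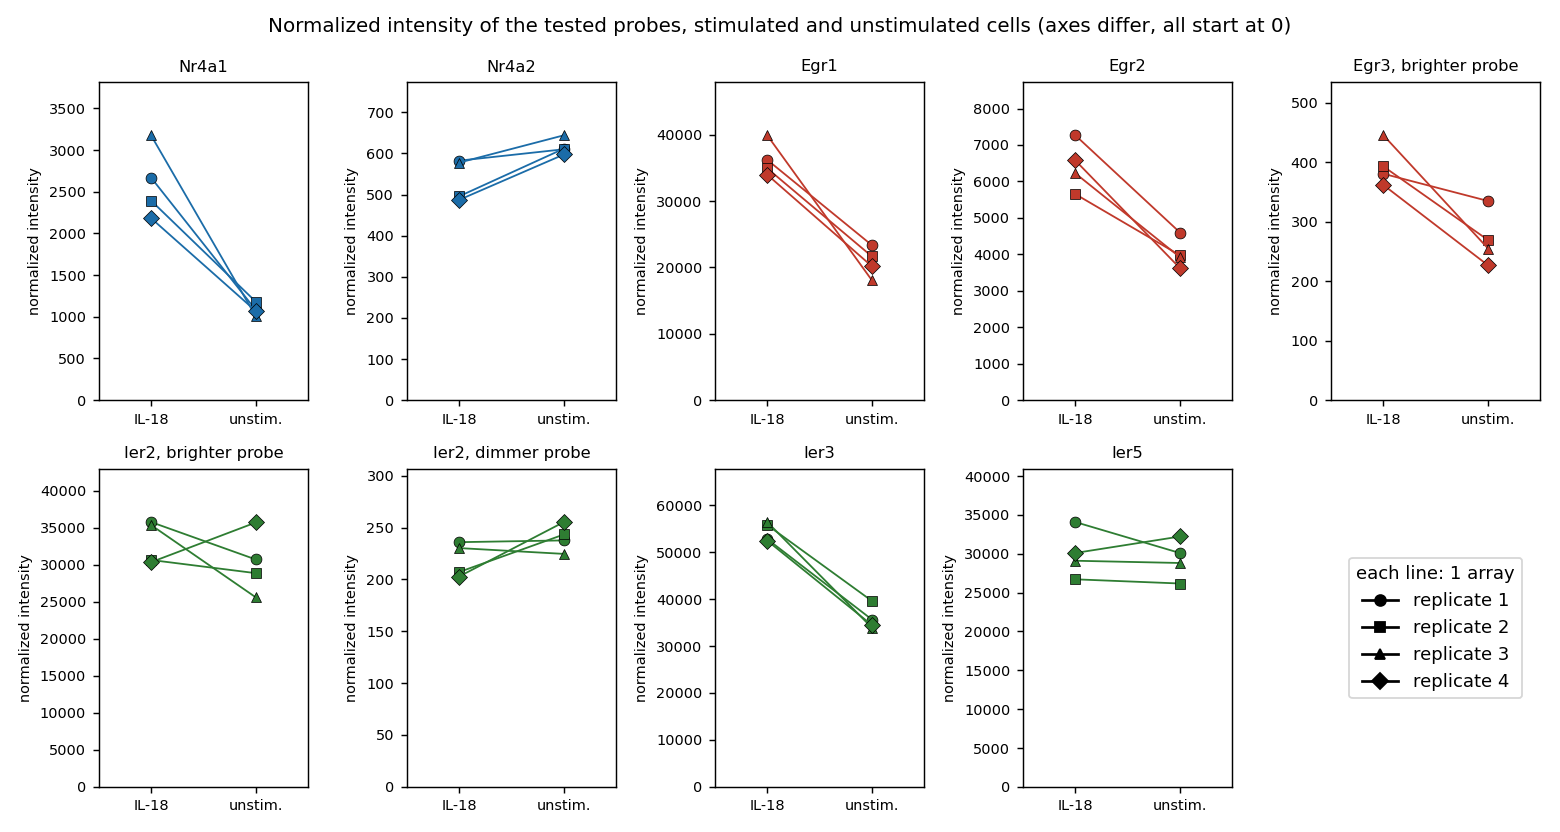
Normalized intensity (y axis, linear, from 0, with its own range in each panel) of the 9 tested probes in IL-18 stimulated cells (left) and their unstimulated controls (right), 1 line per array. Nr4a1, Egr1, Egr2, Egr3 and Ier3 slope down to the control on all 4 lines, Nr4a2 slopes up on all 4, and lines cross for Ier2 and Ier5.

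Egr1, Egr2 and Egr3 rose together. Egr1, the best known of these factors and a classical target of serum response factor, had intensities of 36210, 34930, 39910 and 33970 in stimulated cells and 23340, 21650, 18050 and 20160 in unstimulated cells. No control came near the lowest stimulated sample, and replicate 3 again showed the widest gap. Log2 ratios of 0.63, 0.69, 1.14 and 0.75 averaged 0.81 ± 0.23 (SD, n = 4 arrays), or 1.75-fold (limma adjusted p = 0.00205, 95% interval 0.60 to 1.01). Here 98 tested probes had a higher mean ratio. All 4 stimulated readings of Egr1 came from the second, low-gain scan, scaled up by the scanner software, whereas its unstimulated readings came from the ordinary scan.

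Egr2, known for its part in myelination and in T cell tolerance, was the only member with repeated spots, 10 on each array. Its stimulated intensities were 7266, 5652, 6223 and 6576, against 4597, 3972, 3918 and 3618 in unstimulated cells. The groups did not overlap. The mean of the array ratios 0.66, 0.51, 0.67 and 0.86 was 0.67 ± 0.14 (SD, n = 4 arrays), or 1.60-fold (limma adjusted p = 0.00145, 95% interval 0.53 to 0.82). One reading of the 40 was marked an outlier by the scanner software and left out, and the other 39 were all above 0. The repeated spots set the spot noise beside the spread between arrays. Within an array the SD over spots was 0.0301, 0.0225, 0.0276 and 0.0376 for replicates 1 to 4, while the SD between the 4 array means was 0.145. The spots of replicate 4 (0.808 to 0.925) lay wholly above those of the other arrays, and those of replicate 2 (0.472 to 0.538) wholly below.

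**Figure D3:**
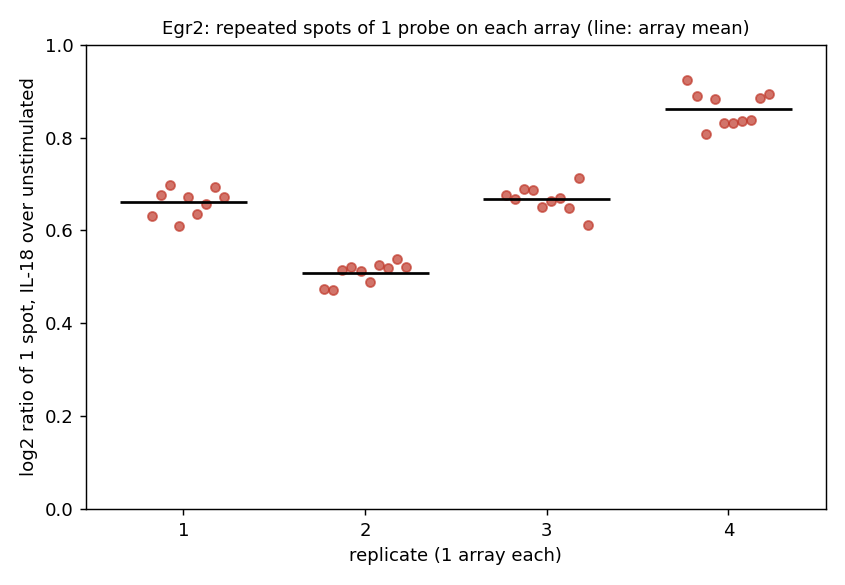
Log2 ratio of single Egr2 spots, IL-18 stimulated over unstimulated (y axis), on the arrays of replicates 1 to 4 (x axis), with a line at each array's mean; 9 spots are shown for replicate 1 and 10 for each other replicate. Spots of 1 array differ by far less than the arrays do, from 0.51 for replicate 2 to 0.86 for replicate 4.

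Egr3 has a pair of probes, of which only the brighter could be tested. The brighter one, designed on a cDNA clone, had intensities of 380.6, 392.9, 445.3 and 361.7 in stimulated cells and 334.8, 269, 254.8 and 226.5 in unstimulated cells. The lowest stimulated value exceeded the highest control, by little, since the control of replicate 1 was well above the other 3. Its log2 ratios were 0.18, 0.55, 0.81 and 0.68, with a mean of 0.55 ± 0.27 (SD, n = 4 arrays), or 1.47-fold (limma adjusted p = 0.00878, 95% interval 0.32 to 0.79). Without replicate 2 the mean of Egr3 was 0.56 and its limma adjusted p = 0.0529. In the scanner software's own log ratios the Egr3 mean was 0.88, and on slide 1 alone (replicates 1 and 2) it was 0.37. The dimmer Egr3 probe, designed on the RefSeq mRNA, was well above background on 1 array in the stimulated channel and on none in the unstimulated channel, and was not tested. Its raw signal above background was 21.95 to 35.68 in stimulated cells and 52.1 to 63.09 in unstimulated cells.

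The Egr genes were also set against each other on the same array, where no exact test of 4 arrays can pass the threshold. Egr1 exceeded Egr2 by 0.13 ± 0.26 on the log2 scale (SD, n = 4 arrays), with Egr1 higher on 2 of 4 (exact sign-flip p = 0.5, adjusted 0.583). Egr1 exceeded Egr3 by 0.25 ± 0.17, higher on 4 of 4 (exact p = 0.13, adjusted 0.219). For Egr2 minus Egr3 the difference was 0.12 ± 0.27, higher on 2 of 4 (exact p = 0.5, adjusted 0.583). The order depended on the processing. In the scanner software's log ratios Egr3 had the highest mean at 0.88, against 0.70 for Egr1 and 0.71 for Egr2.

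Of the Ier genes, Ier3 passed the test after loess, while Ier2 and Ier5 passed it only with median centring, and Ier2 also without replicate 4. Ier3, also called IEX-1, had intensities of 52770, 55770, 56400 and 52440 in stimulated cells, against 35630, 39590, 33890 and 34450 in unstimulated cells. The 4 stimulated values lay close together and far above every control. Its log2 ratios were 0.57, 0.49, 0.74 and 0.61, a mean of 0.60 ± 0.10 (SD, n = 4 arrays), or 1.52-fold (limma adjusted p = 0.00125, 95% interval 0.48 to 0.72). In the scanner software's log ratios the Ier3 mean was 0.40. Of the Ier3 readings, all 4 stimulated ones and 2 of the 4 unstimulated ones came from the low-gain scan. None of the 80 member readings was marked as saturated.

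Ier2 was read by a pair of probes designed on the same RefSeq mRNA. The brighter probe had intensities of 35750, 30630, 35350 and 30330 in stimulated cells and 30700, 28850, 25590 and 35690 in unstimulated cells. The groups overlapped, and replicate 4 ran against the other 3. Its log2 ratios of 0.22, 0.09, 0.47 and -0.23 averaged 0.13 ± 0.29 (SD, n = 4 arrays; limma adjusted p = 0.349, 95% interval -0.12 to 0.39). Without replicate 4 the mean was 0.26 and passed the test (limma adjusted p = 0.0476). The dimmer Ier2 probe had 235.9, 207.1, 230.2 and 202.8 in stimulated cells and 237.6, 243.3, 224.6 and 255.3 in unstimulated cells. Its mean ratio was -0.13 ± 0.18 (limma adjusted p = 0.178, 95% interval -0.30 to 0.03), and here too the groups overlapped, with replicate 4 the lowest. The probes of Ier2 thus had means of opposite sign, neither of which passed the test.

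Ier5 had the mean nearest 0 among the tested member probes. Its intensities were 34080, 26710, 29100 and 30100 in stimulated cells and 30090, 26170, 28810 and 32220 in unstimulated cells. The ranges lay on top of each other. Log2 ratios of 0.18, 0.03, 0.01 and -0.10 averaged 0.03 ± 0.11 (SD, n = 4 arrays; limma adjusted p = 0.675). The 95% interval of -0.10 to 0.16 leaves out a change of the size seen for Ier3, but only for ratios after loess. With median centring alone the means were 1.32 for Ier5 and 1.97 for Ier3. After loess, Ier3 exceeded Ier5 on the same arrays by 0.57 ± 0.17 on the log2 scale, on 4 of 4 (exact sign-flip p = 0.13, adjusted 0.219). Ier2, at its brighter probe, was lower than Ier3 by a difference of -0.47 ± 0.26 on all 4 arrays (exact p = 0.13, adjusted 0.219). Ier2 minus Ier5 was 0.10 ± 0.25, positive on 3 of 4 (exact p = 0.625, adjusted 0.625).

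Egr1, Ier3, Ier5 and the brighter Ier2 probe all had a mean log2 intensity above 14. Among the 1100 tested probes at or above that brightness, 60.1% were called and 38% were called higher, more often than over the whole array, and their median log2 ratio was 0.07. Loess removed a trend of the ratio with brightness. For these 4 probes it was 1.40 for Egr1, 1.43 for Ier2, 1.49 for Ier3 and 1.42 for Ier5 (log2, stimulated over unstimulated, mean of 4 arrays). For Nr4a1 it was 0.89, and for the brighter Egr3 probe 0.51. With the dyes fixed, a dye effect and a broad response to IL-18 cannot be told apart in this trend. Before loess the raw ratio of Ier5 was 1.45 and that of Ier3 was 2.09, so the gap between these genes was there in the raw signals. The stimulated readings of Ier2 and Ier5 on all 4 arrays also came from the low-gain scan. Its part in these ratios was not tested.

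**Figure D4:**
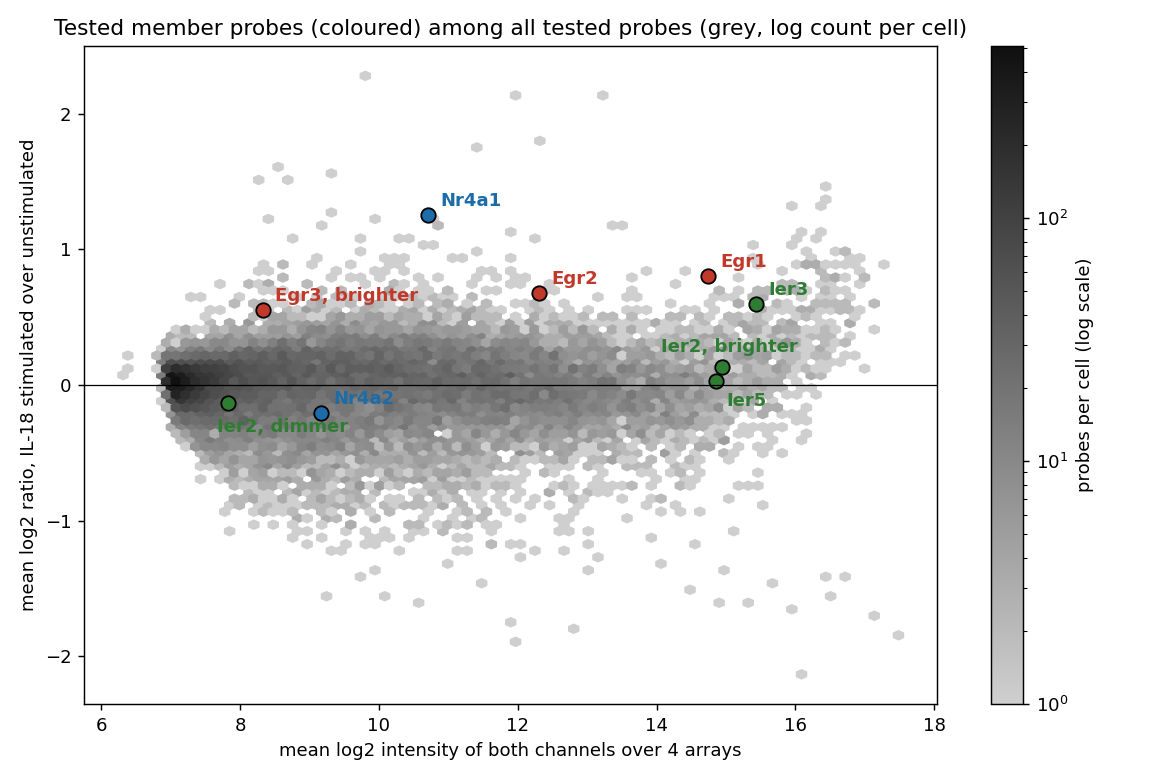
Mean log2 ratio of IL-18 stimulated over unstimulated cells (y axis) against mean log2 intensity of both channels (x axis) over 4 arrays; grey cells count all 24101 tested probes on a log scale, and coloured points are the 9 tested member probes. Nr4a1 at 1.25 stands above the bulk of the probes, Egr1, Egr2, the brighter Egr3 probe and Ier3 lie along its upper side, and Nr4a2, Ier2 and Ier5 lie within it.

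The genes whose 4 array ratios were most like those of the leading member of each family were found among 12619 genes with a plain symbol, by the root mean square difference of the log2 ratios over the 4 arrays. For Nr4a1 they were the antiproliferative gene Btg2 (0.163), the activation antigen Cd69 (0.217) and the NF-kB subunit Relb (0.219), whose mean ratios were 1.23, 1.14 and 1.19. Egr1 was matched most closely by the MAP kinase phosphatase Dusp1 (0.064), followed by the lectin receptor Clec4e (0.080) and the chemokine Ccl5 (0.115). Nearest to Ier3 stood the kinase Jak2 (0.059), the NF-kB precursor Nfkb2 (0.073) and the cytokine Il4 (0.084). These are descriptions over 4 points from the same arrays, and a like mean alone can make the difference small.

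Of 46 other immediate-early genes, 43 were tested at their brightest tested probe. In stimulated cells 20 were higher, 8 were lower and 15 were not called, with a median log2 ratio of 0.10. Over all 16969 tested genes 19.7% were higher and 13.7% lower, and the median was 0.04. Egr4, the remaining Egr gene, was higher by 0.29 ± 0.25 (SD, n = 4 arrays; limma adjusted p = 0.0494), and Ier5l, a relative of Ier5, had -0.13 ± 0.11 and was not called. The AP-1 subunit Fos had the highest mean at 1.28 ± 0.41 (adjusted p = 0.00219), beside 1.25 for Nr4a1. It was followed by Btg2 at 1.23 ± 0.19 (6.57e-04), the stress gene Gadd45b at 1.07 ± 0.18 (7.5e-04) and the AP-1 subunit Junb at 1.07 ± 0.21 (9.49e-04). The largest falls were those of the Krueppel-like factor Klf2 at -1.62 ± 0.47 (0.00175), whose other probe was higher, and of the clock gene Per1 at -0.43 ± 0.21 (0.01). Klf10 with -0.35 ± 0.08 (0.00385) and the mRNA decay factor Zfp36l2 with -0.35 ± 0.18 (0.0142) came next.

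Among 27 regulators and partners of the members, 23 were tested: 4 were higher, 5 were lower and 14 were not called. Their median was 0.00. Over all 16969 tested genes 33.4% were called, 19.7% higher and 13.7% lower. Calls among the regulators were thus about as frequent as over all genes. Nab1, a corepressor that binds EGR proteins and restrains them, was higher by 0.33 ± 0.17 (SD, n = 4 arrays; limma adjusted p = 0.0144), and its relative Nab2 at 0.10 was not called (adjusted p = 0.126). Srf, the serum response factor that acts at CArG boxes, was higher by 0.30 ± 0.08 (0.00668). The MEF2 factor Mef2a at 0.48 ± 0.10 (0.00205) and the CREB relative Atf1 at 0.23 ± 0.13 (0.028) were higher too. For Mef2a and for Atf1 only 1 of 3 tested probes was called, and for Nab1 only 1 of 2. Lower were the NR4A partner Rxrb at -0.41 ± 0.34 (0.0397), the ERK kinase Mapk3 at -0.33 ± 0.15 (0.0116), its target kinase Rps6ka1 at -0.31 ± 0.15 (0.014) and the SRF coactivator Mkl1 at -0.28 ± 0.11 (0.0103). The fifth was Elk3, an SRF partner, at -0.16 ± 0.06 (0.0365). The other Elk3 probe had a mean of 0.13 and was not called, and for Rps6ka1 only 1 of 2 tested probes was called. The NR4A partners Rxra and Rxrg did not pass the test.

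Markers of the labelled cell type were present. All 8 mast cell markers were bright enough to test, 4 of them were higher in stimulated cells (Mcpt1, Fcer1a, Cpa3 and Gata2, whose other probe was lower) and the other 4 were not called. Their summed normalized intensity was 614000 to 693000 in stimulated and 401000 to 527000 in unstimulated cells. Of 33 markers of other cells, 22 were tested, 4 were higher (Adgre1, Ncr1, Mcpt8 and Cd200r3), 1 was lower (Itgax, whose other probe was higher) and 17 were not called. Over all tested genes 19.7% were higher and 13.7% lower. Among tested probes with a mean log2 intensity of 14 or more, 38% were higher. Elane, Cd8a, Prg2 and Epx were not well above background anywhere. The 5 macrophage markers summed to 76800 to 87600 in stimulated and 74100 to 82700 in unstimulated cells. The 2 basophil markers summed to 30900 to 34800 in stimulated and 25400 to 28900 in unstimulated cells. Each of these sums came mainly from a single gene. Lyz2 had a mean log2 intensity of 16.22, against 7.92 to 10.10 for the rest of the macrophage list. Cd200r3 had 14.80, against 10.04 for Mcpt8. Sums of the other lists stayed at or under 2490 on every array. The part of other cells in the members' ratios was not tested. In the stimulated channel 57.9% to 62.7% of the gene spots exceeded background clearly, against 49.9% to 54% in the unstimulated one. Correlations between the arrays' log2 ratios over tested probes were 0.619 to 0.906, the lowest of them between replicates 1 and 4.

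**Figure D5:**
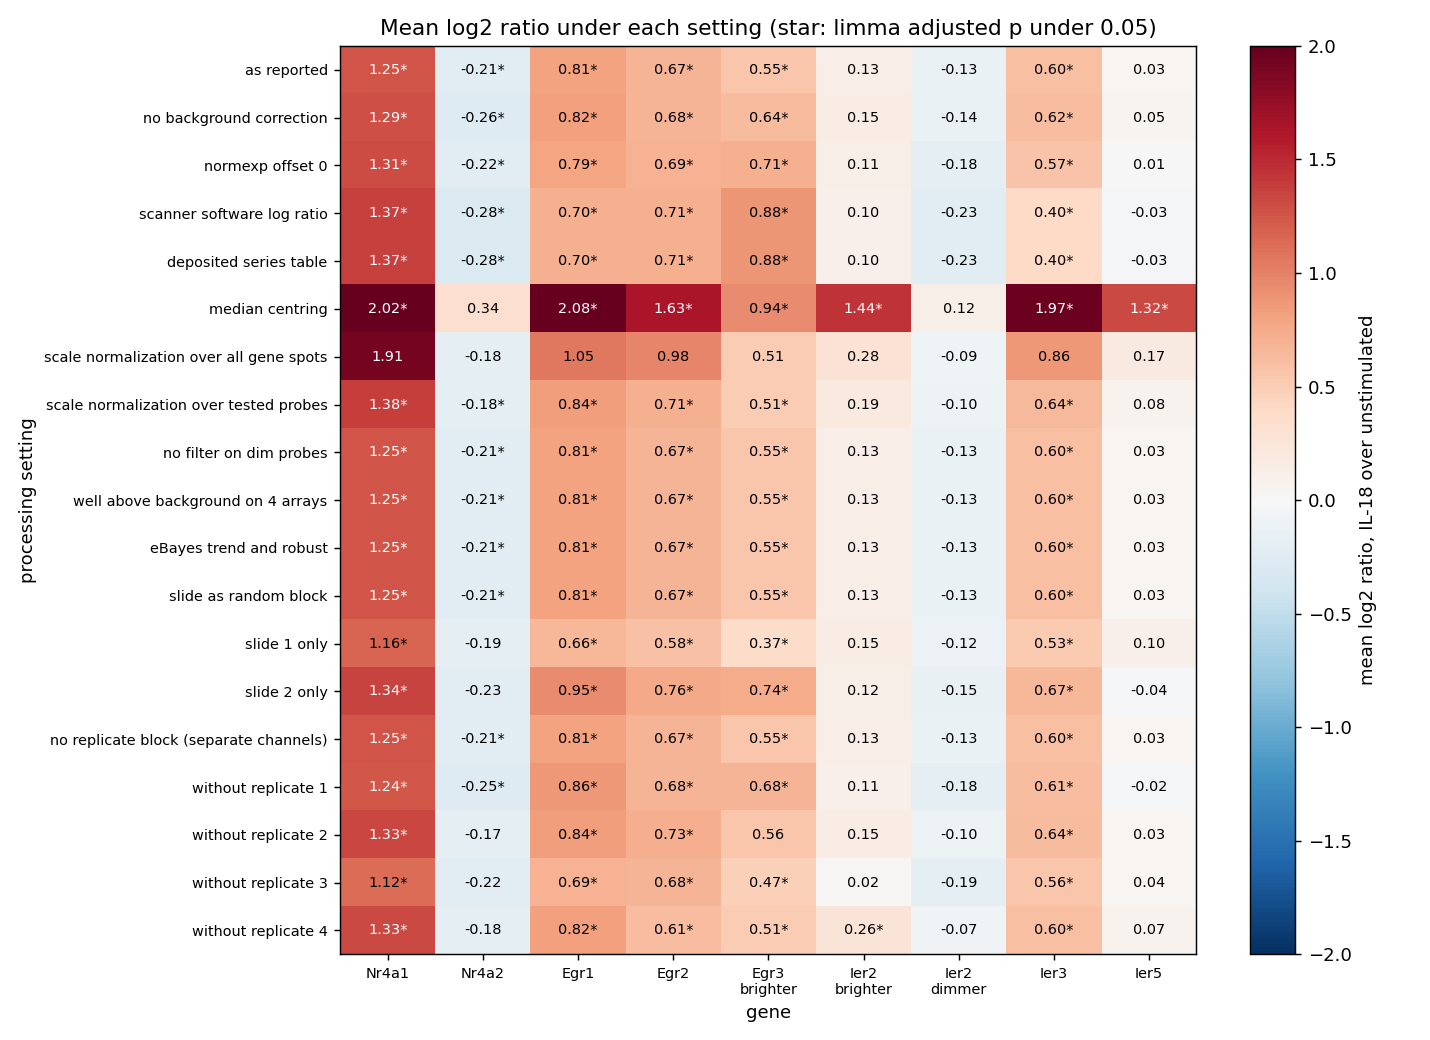
Mean log2 ratio of IL-18 stimulated over unstimulated cells (colour and number) for the 9 tested member probes (columns) as reported and under 18 other settings (lines down the page), with a star where the limma adjusted p was under 0.05. Nr4a1, Egr1, Egr2 and Ier3 keep their star in 17 of the 18, Nr4a2 loses its call in 7, and median centring lifts every probe.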

How the data were processed

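Labelled cRNA of 4 pairs of mast cell cultures was measured on 4 two-colour arrays. The intensity values are spot means and local background medians from the authors' Agilent Feature Extraction 9.1, per the file headers, not yet corrected or dye-normalized. The deposited files also hold the software's log10 ratio of Cy5 over Cy3, for which, per the file headers, background was subtracted and dyes were normalized by a linear and lowess method; the deposited series table differed from it by at most 0.00496. These log10 ratios served as alternatives. Spot flags were used as deposited.

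Background was corrected by normexp with an offset of 50, and log2 ratios were normalized by loess within each array, control and outlier spots having no weight. Spots of 1 probe were averaged. Channel intensities were further normalized between arrays (Aquantile). A probe was tested where 1 of its channels was well above background on 3 or more of the 4 arrays. limma 3.58.1 in R 4.3.3 tested each mean log2 ratio against 0, two-sided, and p-values of all 24101 tested probes were adjusted by Benjamini-Hochberg, with calls made under 0.05. A ratio within 1 array is the difference within 1 pair, as the series' design text states, so this is the paired test. Every adjusted p given for a gene is limma's, except those of the sign-flip test. The steps were tested on simulated data, with changes planted only in probes brighter than the median tested probe. The tested Egr3 probe and the dimmer Ier2 probe lie below that brightness, so recovery of their ratios was not tested.

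All 9 members were reported with every probe. Of the other immediate-early genes the 4 largest called changes in each direction were named, and also Egr4 and Ier5l as relatives of members. Of the regulators and partners every called gene was named, and also Nab2, Rxra and Rxrg, which were not called. For the leading called member of each family the 3 genes with the nearest array pattern were named. Members and lists were chosen with earlier results of these data known. Gene names are those of the array, updated through RefSeq for 24913 of 43379 gene spots. The files name no genome build, so coordinates are given only for the RefSeq sequences. Probe sequences were not used here. The number of arrays limits the precision.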

Additional observations from a re-analysis of the deposited data

How the results depend on the processing

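The mean ratios of Nr4a1, Egr1, Egr2 and Ier3 kept their sign under all 18 alternatives and their call under 17. Nr4a1 ranged from 1.12 to 2.02, Egr1 from 0.66 to 2.08, Egr2 from 0.58 to 1.63 and Ier3 from 0.40 to 1.97. With each array centred on its median and the trend with brightness left in, 13971 probes were higher and 176 lower (4360 and 3871 as reported). Of the calls, 98.8% were higher against 53%, and no member probe was lower by limma. Of the other immediate-early genes 33 were higher and 0 lower. In that setting the brighter Ier2 probe (1.44, adjusted p = 0.0103) and Ier5 (1.32, 0.012) gained a call, for 7 member probes higher against 5 as reported. Nr4a2 turned to 0.34 and the dimmer Ier2 probe to 0.12, both without a call. Ier5, near 0, turned to -0.027 in the scanner software's ratios and in the series table, to -0.042 on slide 2 and to -0.018 without replicate 1, where leaving out others gave up to 0.075. Scaling the arrays to 1 spread over all gene spots left 0 limma calls (5983 probes at an unadjusted p under 0.05): replicate 1 has a median absolute ratio of 0.0162 there, against 0.0934 to 0.117 for the others, and is stretched. Scaling over tested probes, chosen after seeing the data, gave 3542 higher and 3775 lower probes and kept the 6 member calls. Slide 1 alone gave 2385 and 1974, slide 2 alone 2031 higher, with no lower member in either; other immediate-early genes were 4 lower on slide 1 and 12 higher on slide 2. Leaving out each replicate gave 1387 to 4506 probes higher and 904 to 4975 lower, the fewest without replicate 2, next without replicate 3 (1685 and 1258). Member probes numbered 4 to 6 higher and 0 to 1 lower, and other immediate-early genes 12 to 20 higher and 3 to 10 lower. Without the replicate block, with the channels of each array treated as unpaired, 3391 probes were higher and 3553 lower, and the members' calls were as reported. Dim probes limit what can be said: Nr4a3 and the dimmer Egr3 probe have no level here. Causes were not tested.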
